A study of Mus musculus with 6 samples.

Results

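The retinal pigment epithelium is the single layer of pigmented cells behind the photoreceptors, and 9 genes of its visual cycle and transport functions were followed here: Rpe65, Lrat, Rdh5, Rgr, Rrh, Stra6, Ttr, Best1 and Slc16a8. They were chosen by name, and every array probe annotated with 1 of these symbols alone was taken, which gave 14 probes of 45281 on the array. Expression was measured on single-colour Illumina bead arrays in central retina of rd1/rd1 mice, the strain whose rods and then cones die from a mutation of the rod phosphodiesterase gene Pde6b. Untreated animals were compared at 2 and 8 months of age, with 3 samples per age, and both ages carry the mutation, so no sample shows a healthy retina. Each sample pooled 3 to 6 punches, 1.5 mm across, of the retina. The sources used here do not give how many animals made up a pool, their sex, or whether pools shared animals, so p-values measure only the spread between these pools. The samples are labelled retina and not pigment epithelium, and the labels do not say how the layers were parted.

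Pigment epithelium takes up retinol from the blood, stores it as an ester, and turns it into the cis form that photoreceptor opsins need. The light-bleached chromophore returns to it from the photoreceptors, and this loop is the visual cycle. The same cells pump ions and lactate from the retina towards the choroid, the vascular layer behind them.

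The label was checked against cell type markers. Grm6, the glutamate receptor of ON bipolar cells, lay at 12.47 ± 0.06 (log2 intensity, SD, n = 3) at 2 months and 12.41 ± 0.06 at 8 months where the median of each array was 7.19. Pax6, a transcription factor of inner retinal neurons, was dim, at 7.49 ± 0.04 and 7.52 ± 0.07. Arr3, the cone arrestin, was at 9.24 ± 0.09 and 7.68 ± 0.26. The brightest probe of each of the 9 members exceeded the array median in every sample, by 0.27 or more for all but Best1, which is no test of detection. In bulk tissue fewer cells of a type and less RNA per cell cannot be told apart.

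Promoters of the members are shown because most members moved together from sample to sample, as described further on. Whether they share regulation was not tested. The RefSeq promoter table (build GRCm38.p6) holds 11 promoters of 8 members, each from 250 bases before to 50 after a start site. Ttr is not among them. They were searched on both strands for CATGTG and CACGTG, E-boxes of the kind bound by MITF, the master regulator of pigment cells, and for GGATTA, the core site of OTX2 and CRX. Matches were found in 3 promoters, those of Rpe65, Rgr and Best1, where 26.2% of all promoters in the table held a match to any of these motifs. No match overlapped another. Capitals mark the matches, and each sequence runs 5′ to 3′ on the strand of its gene. The first pair holds an E-box and an OTX2 core each, and the second pair holds no match.
Rpe65, chr3:159598931-159599230, plus strand: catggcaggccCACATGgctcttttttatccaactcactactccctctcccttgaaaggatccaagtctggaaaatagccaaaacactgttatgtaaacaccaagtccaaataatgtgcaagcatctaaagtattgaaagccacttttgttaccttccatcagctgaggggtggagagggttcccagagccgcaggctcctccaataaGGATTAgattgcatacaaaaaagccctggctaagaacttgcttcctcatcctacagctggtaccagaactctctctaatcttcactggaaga
Rgr, chr14:37048965-37049264, minus strand: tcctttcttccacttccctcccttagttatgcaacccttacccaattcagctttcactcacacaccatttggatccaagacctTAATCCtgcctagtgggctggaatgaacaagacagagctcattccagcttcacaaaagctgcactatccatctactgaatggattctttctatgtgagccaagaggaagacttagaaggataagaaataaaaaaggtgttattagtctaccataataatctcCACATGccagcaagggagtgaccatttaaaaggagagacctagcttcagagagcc
Rdh5, chr10:128919248-128919547, minus strand: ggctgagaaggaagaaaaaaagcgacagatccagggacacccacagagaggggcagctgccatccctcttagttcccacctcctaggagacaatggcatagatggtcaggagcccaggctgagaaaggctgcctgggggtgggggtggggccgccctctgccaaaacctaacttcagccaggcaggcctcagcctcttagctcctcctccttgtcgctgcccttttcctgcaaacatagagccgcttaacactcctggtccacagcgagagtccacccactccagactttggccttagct
Rrh, chr3:129822456-129822755, minus strand: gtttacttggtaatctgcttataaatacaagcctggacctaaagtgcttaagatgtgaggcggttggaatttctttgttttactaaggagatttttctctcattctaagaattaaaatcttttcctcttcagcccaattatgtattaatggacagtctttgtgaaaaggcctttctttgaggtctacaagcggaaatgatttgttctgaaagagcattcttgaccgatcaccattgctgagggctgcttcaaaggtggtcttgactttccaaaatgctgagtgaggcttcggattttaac
In Rpe65 the match to GGATTA began 42 bases before the start site and that to CATGTG, on the other strand, 239 bases before it. In Rgr the matches, both on the other strand, began 167 and 5 bases before it. In Best1 the single match to GGATTA, on the other strand, began 227 bases before it. Among all 32851 promoters of this length in the table, 14.2% held CATGTG, 7.15% CACGTG and 7.06% GGATTA, so a match is common. Rpe65 and Rgr had both matches, and Lrat, Rdh5, Stra6 and Slc16a8 had none. The brightest probes of all these genes were highest in 2 month replicate 2 and lowest in 8 month replicate 3. Rrh, without a match, and Best1, with 1, had flatter profiles. Whether matches and profiles go together was not tested.

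The comparison between ages asked whether pigment epithelium genes in the punches changed during late degeneration. No member was called. Of the 14 probes, 12 passed the filter on dim probes (a probe had to exceed the median of its array on 3 or more arrays). Of these 12, 0 were lower and 0 higher at an adjusted p below 0.05 (limma, with Benjamini-Hochberg adjustment for 22458 tested probes), against 0.0134% and 0.0356% of all tested probes. At an unadjusted p below 0.05, 1 of the 12 was lower, the brighter probe of Rdh5, where 4.44% of all tested probes were lower. Negative changes, 8 months minus 2 months, were seen at 11 of the 12, against 48.7% of all tested probes. The 11 include 3 probes of Rgr and a dim probe of Rdh5 with a change of −0.00037. All probes share the same samples, so they are not separate cases. The median change over all 14 probes was −0.35 on the log2 scale, against 0.00063 over all probes of the array. The ages did not overlap at 1 of the 12, which was lower at 8 months, where 6.61% of all tested probes were lower and 7.08% higher without overlap. The rest of the account shows that single samples carried much of this, above all 8 month replicate 3.

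**Figure D1:**
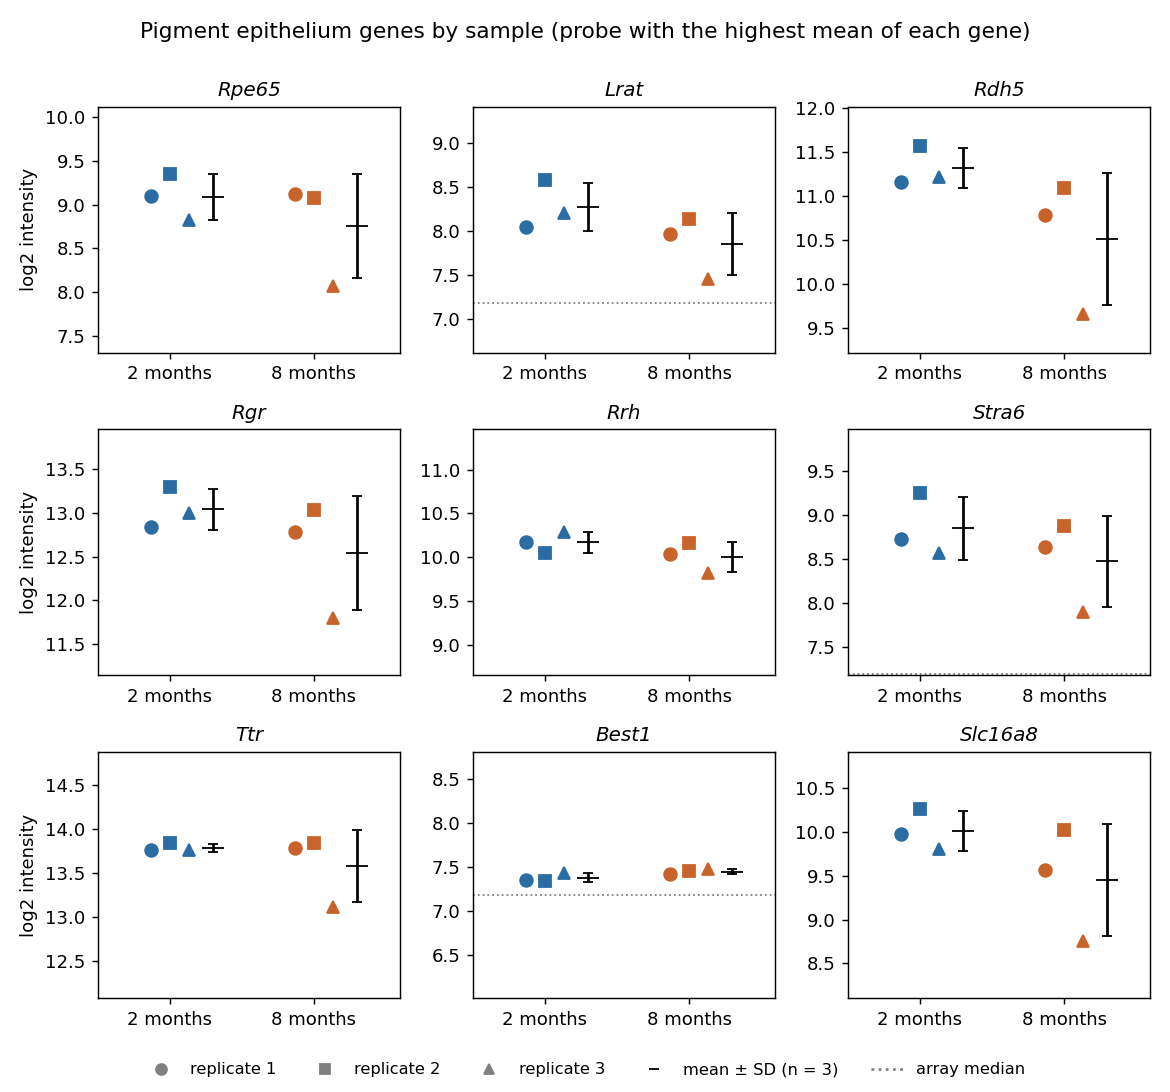
Log2 intensity of the 9 genes at 2 months (blue) and 8 months (orange), each at its probe with the highest mean, with marker shape for the replicate and the bar for mean ± SD (n = 3); each panel spans the same log2 range, and the dotted line is the array median of 7.19. In 8 of the 9 panels the triangle of 8 month replicate 3 is the lowest point, and Best1 lies flat near the array median.

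Retinol delivery comes first in the cycle. Ttr codes for transthyretin, which carries the retinol-binding protein in blood and is also made by pigment epithelium. Its probe read 13.77, 13.84 and 13.76 at 2 months and 13.78, 13.84 and 13.11 at 8 months (replicates 1, 2 and 3, log2 intensity). Thus 5 samples lay within 0.08 of each other, and 8 month replicate 3 lay below them all. The change was −0.21 (SE 0.180, limma adjusted p = 0.833), and it was 0.024 without that sample. Stra6 is the membrane receptor through which cells take up retinol from its binding protein. Its brighter probe read 8.73, 9.25 and 8.56 at 2 months and 8.64, 8.88 and 7.90 at 8 months. The highest value was that of 2 month replicate 2, and the ages overlapped except for 8 month replicate 3. The change was −0.38 (SE 0.273, limma adjusted p = 0.776), and −0.09 without 8 month replicate 3. The other probe of Stra6 stayed below the filter, at 7.12 ± 0.02 and 7.14 ± 0.01, and was not tested.

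Lrat, the enzyme that stores retinol as retinyl esters, read 8.04, 8.58 and 8.21 at 2 months and 7.96, 8.14 and 7.46 at 8 months. Here 2 month replicate 2 was highest and 8 month replicate 3 lowest, and 8 month replicate 2 fell among the 2 month samples. The change was −0.43 (SE 0.197, limma adjusted p = 0.599), and −0.23 without 8 month replicate 3.

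Rpe65 is the isomerase that turns retinyl ester into the cis retinol, and it is the gene by which pigment epithelium is most often recognised. It read 9.09, 9.35 and 8.83 at 2 months and 9.13, 9.07 and 8.08 at 8 months. Of the 8 month samples, replicates 1 and 2 fell within the range at 2 months, and replicate 3 lay below every other sample. The change was −0.33 (SE 0.281, 95% interval −0.99 to 0.33, limma adjusted p = 0.829). Without 8 month replicate 3 it was 0.0091, and without 2 month replicate 2 it was −0.20.

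Rdh5, the dehydrogenase that oxidises the cis retinol to the aldehyde handed to photoreceptors, had the change of greatest size among the members. Its brighter probe read 11.16, 11.57 and 11.21 at 2 months and 10.78, 11.09 and 9.66 at 8 months. All 3 samples at 8 months lay below all 3 at 2 months, but 8 month replicate 2 came within 0.065 of the lowest 2 month sample. The means were 11.31 ± 0.23 and 10.51 ± 0.75 (SD, n = 3). The change was −0.80 (SE 0.341, 95% interval −1.61 to −0.002), or 1.75-fold lower at 8 months, with a limma adjusted p of 0.550. Without 8 month replicate 3 it was −0.38, with the ages still not overlapping. The other probe of Rdh5 was kept by the filter but lay near the array median in every sample, from 7.20 to 7.29, with no change to 2 decimals (SE 0.045).

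Rgr and Rrh are opsins of the pigment epithelium rather than of photoreceptors. Rgr, the retinal G protein coupled receptor, is an opsin that forms the cis chromophore in light and is also expressed in Müller glia, the supporting cells of the retina. Its brightest probe read 12.83, 13.29 and 12.99 at 2 months and 12.78, 13.03 and 11.80 at 8 months. The other 5 samples lay within 0.51 of each other, and 8 month replicate 3 stood well below them. The change was −0.50 (SE 0.298, limma adjusted p = 0.717), and −0.13 without that sample. The other probes of Rgr had changes of −0.65 (SE 0.301) and −0.47 (SE 0.327), and −0.32 and −0.07 without 8 month replicate 3. The 3 probes therefore gave the same order of samples at both extremes, with 2 month replicate 2 highest and 8 month replicate 3 lowest.

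Rrh, or peropsin, an opsin of the microvilli of pigment epithelium, had a narrower spread. Its brighter probe read 10.17, 10.05 and 10.29 at 2 months and 10.04, 10.16 and 9.82 at 8 months. The samples spanned 0.47, against 1.12 to 1.92 for Lrat, Rpe65, Stra6, Rgr, Slc16a8 and Rdh5, each at its brightest probe. Unlike in those genes, 2 month replicate 2 was the lowest sample of its age. The change was −0.17 (SE 0.098, limma adjusted p = 0.716), and −0.07 without 8 month replicate 3. The second probe of Rrh stayed below the filter, at 7.12 ± 0.01 and 7.10 ± 0.02.

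Of the transport genes, Slc16a8, the lactate transporter of the basal side of pigment epithelium, read 9.97, 10.25 and 9.80 at 2 months and 9.56, 10.02 and 8.76 at 8 months. Again 8 month replicate 2 lay within the range at 2 months, and 8 month replicate 3 was the lowest of all. The change was −0.56 (SE 0.295, 95% interval −1.25 to 0.13, limma adjusted p = 0.669), and −0.22 without 8 month replicate 3. Best1, bestrophin, a chloride channel of the basal membrane, read 7.36, 7.35 and 7.44 at 2 months and 7.42, 7.46 and 7.47 at 8 months. It was the only member with a positive change at its brightest probe, 0.07 (SE 0.046, limma adjusted p = 0.751). All its values lay within 0.29 of the array median.

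**Figure D2:**
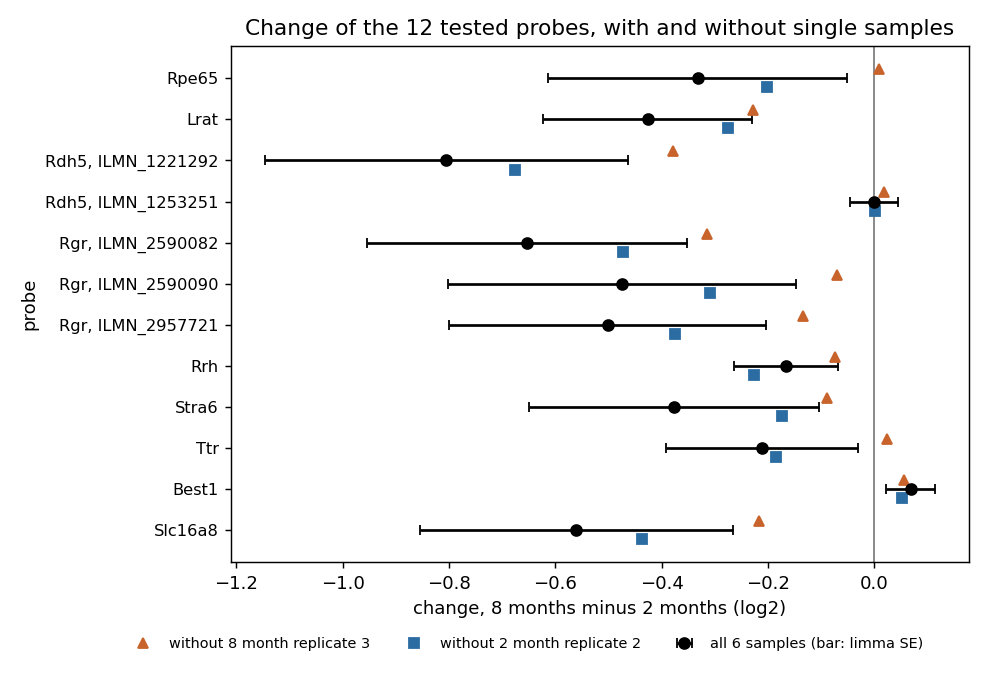
Change of the 12 tested probes, 8 months minus 2 months on the log2 scale, with all 6 samples (black, bar for limma's standard error), without 8 month replicate 3 (orange triangles) and without 2 month replicate 2 (blue squares). Without 8 month replicate 3 the changes lie between −0.38 and 0.06.

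Among the 12 tested probes, 10 were lowest in 8 month replicate 3, where 15.1% of all tested probes were lowest. The exceptions were Best1 and the dim probe of Rdh5. At 9 of the 12 the highest value was that of 2 month replicate 2, for Ttr shared with 8 month replicate 2, against 17.3% of all tested probes. The range within an age was wider at 8 than at 2 months for 8 of the 9 genes. Without 8 month replicate 3 the changes of 8 tested probes were negative and of 4 positive, and the median over all 14 probes was −0.07. Centred on its own mean, the average member stood at 0.10, 0.36 and 0.09 in the 2 month samples and at −0.02, 0.16 and −0.69 in the 8 month samples. The 8 month samples thus held both the second highest and the lowest value.

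**Figure D3:**
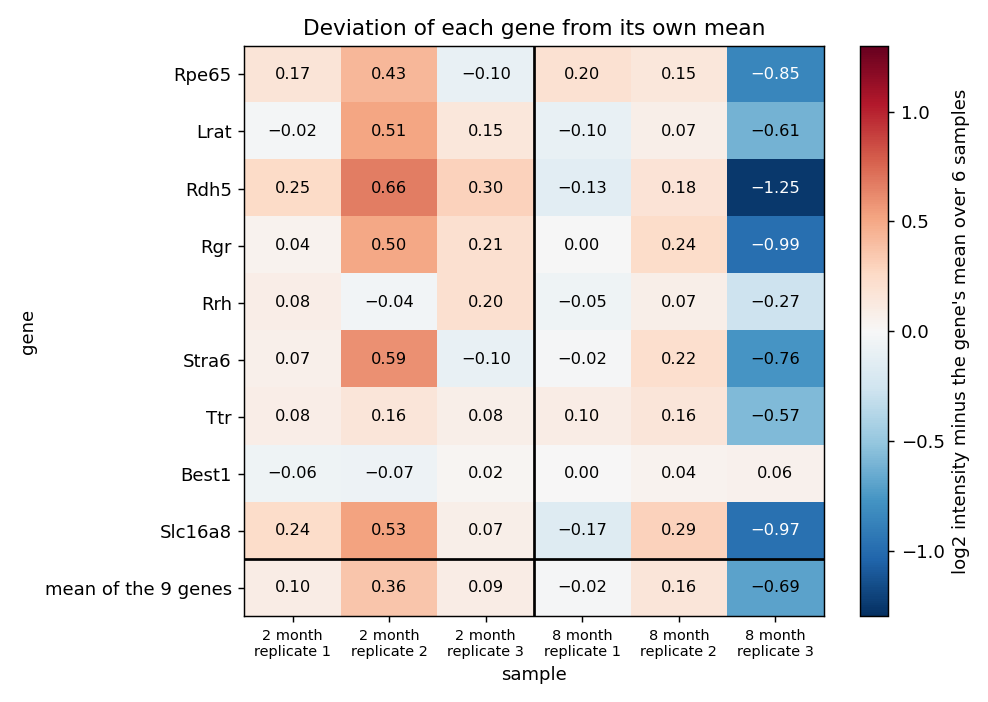
Log2 intensity of each gene minus its own mean over the 6 samples, by gene (rows) and sample (columns), with the mean of the 9 genes in the bottom row; red is above and blue below the mean. The column of 8 month replicate 3 is negative for every gene but Best1, from −0.27 for Rrh to −1.25 for Rdh5.

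The size of the deficit in 8 month replicate 3 differed between members. Against the mean of the other 8 month samples it was −1.28 for Rdh5, −1.10 for Rgr, −1.03 for Slc16a8, −1.02 for Rpe65 and −0.86 for Stra6. It was smaller for Ttr, at −0.70, Lrat, at −0.60, and Rrh, at −0.28. The mean of Ttr exceeded that of 99.9% of the probes, and compression at the top of the scale was not tested. With 1 sample these differences between genes have no test. In 8 month replicate 3 Lrat was at 7.46, 0.27 above the array median.

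Over the 6 samples, each member was compared with the mean of the other 8. Pearson's r, given as a description, was 0.93 to 0.99 for Rpe65, Lrat, Rdh5, Rgr, Stra6, Ttr and Slc16a8, 0.70 for Rrh and −0.66 for Best1. Spearman's rho was 0.94 for Rgr and Slc16a8, 0.77 to 0.83 for Lrat, Rdh5, Stra6 and Ttr, 0.49 for Rpe65, 0.43 for Rrh and −0.60 for Best1. Without the 2 samples farthest from the median, 2 month replicate 2 and 8 month replicate 3, Pearson's r was 0.89 for Slc16a8 and 0.74 for Rgr, and it was −0.43 for Rpe65, where it was 0.93 with all samples. It was 0.63 for Rdh5, 0.62 for Lrat, 0.50 for Rrh, 0.47 for Stra6, 0.42 for Ttr and 0.19 for Best1. The likeness of most members to the others therefore rested in part on those samples, and that of Rpe65 wholly. All points share the arrays and their normalization.

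The genes whose profile was most like the mean of the members were sought among 848 other genes whose samples spanned at least 0.5. The closest were Clic6, a chloride intracellular channel gene, with r = 0.993, Car12, a carbonic anhydrase, with r = 0.990, and Pon1, the paraoxonase, with r = 0.983 (n = 6 samples each). They were followed by Flvcr2, Olfml1, Krt18, Elovl1, Sox10, Gsta2 and Cltrn, with r from 0.980 down to 0.964. Clic6 read 9.85, 10.29 and 9.96 at 2 months and 9.67, 9.87 and 8.65 at 8 months. Pon1 read 10.56, 11.25 and 10.46, then 10.47, 10.58 and 9.23. Without the 2 farthest samples r was 0.76 for Clic6, 0.60 for Car12 and 0.71 for Pon1, and it was negative for Sox10 and Cltrn, at −0.15 and −0.41.

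Other genes of retinoid handling were mixed. Of 14 tested genes of this list (17 on the array), 0 were called by limma, while 3 were lower and 1 higher at an unadjusted p below 0.05, and 11 had negative changes. The median was −0.07. Rbp3, which codes for the retinoid-binding protein of the space between photoreceptors and pigment epithelium and is made by photoreceptors, read 11.01, 11.15 and 10.63 at 2 months and 10.38, 10.51 and 10.45 at 8 months. Its ages did not overlap, as at the brighter probe of Rdh5. In Rbp3 8 month replicate 3 was not the lowest sample, unlike at the brightest probe of every member but Best1. Its change was −0.49 (SE 0.126, limma adjusted p = 0.274). Rdh12, a retinol dehydrogenase of photoreceptors, had a change of −0.34 (SE 0.0905, limma adjusted p = 0.289) and −0.02 at its other probe. Crabp2, a carrier of retinoic acid, had one of 0.20 (SE 0.0442, limma adjusted p = 0.202). Rlbp1, the carrier of cis retinal in both pigment epithelium and Müller glia, chosen after its values were seen, read 12.74, 12.88 and 12.86, then 12.60, 12.89 and 12.43.

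Further genes of pigment epithelium followed the members in part. Of 21 tested, 17 had negative changes and 0 were called (limma), with 2 lower and 1 higher at an unadjusted p below 0.05, and the median was −0.13. In this list 9 of the 21 were lowest in 8 month replicate 3 and 14 were highest in 2 month replicate 2. Trpm3, a cation channel, had a change of −0.47 at its brightest probe (SE 0.164, limma adjusted p = 0.441), and the changes of its 7 tested probes ran from there to 0.02. Slc2a1, the glucose transporter through which pigment epithelium feeds the outer retina, had one of −0.21 (SE 0.0847, adjusted p = 0.531). Gas6, a ligand of the receptor by which pigment epithelium engulfs outer segments, had one of 0.24 (SE 0.0625, adjusted p = 0.288). Several of these genes, Slc2a1 and Gas6 among them, are also expressed in other retinal cells.

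Most genes of the melanin list mark pigment epithelium and the melanocytes of the choroid alike, with Sox10 as an exception. Of 12 tested, 11 had negative changes, with a median of −0.21, and 0 were called (limma), with 3 lower at an unadjusted p below 0.05. Dct, dopachrome tautomerase, read 10.44, 12.28 and 10.95 at 2 months and 10.41, 10.23 and 9.13 at 8 months. Tyrp1, a melanin enzyme, read 8.03, 9.56 and 8.27, then 8.06, 7.41 and 7.44 at its brightest probe. The changes of its 3 tested probes ran from −0.98 to −0.15. Gpr143, a melanosome receptor, had a change of −0.21 (SE 0.0665, limma adjusted p = 0.392). At 10 of the 12 melanin genes 2 month replicate 2 was highest, and at 6 of them 8 month replicate 3 was lowest.

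Set against the mean of the melanin genes within each array, the members moved unequally. That mean was 7.84, 8.49 and 8.01 at 2 months and 7.91, 7.76 and 7.55 at 8 months. Relative to it, the spread of Rpe65 over the 6 samples narrowed from 1.27 to 0.79, that of Lrat from 1.12 to 0.47 and that of Stra6 from 1.36 to 0.77. The difference between ages then became 0.04 for Rpe65, −0.06 for Lrat, −0.01 for Stra6, −0.13 for Rgr, −0.19 for Slc16a8, 0.16 for Ttr, 0.20 for Rrh and 0.44 for Best1. For Rdh5 it went from −0.80 to −0.44, and the spread narrowed from 1.92 to 1.23. In Rdh5 8 month replicate 3 lay 2.10 above the melanin mean and the other samples 2.87 to 3.33 above it. On this scale 8 month replicate 3 was still the lowest sample for Rpe65, Lrat, Stra6, Rgr and Slc16a8 as well. For Rrh and Best1 the spread widened instead, from 0.47 to 0.83 and from 0.13 to 1.06. The melanin mean gave its 12 genes equal weight, and its own change was −0.37. Among them Tyr, Slc45a2 and Mlph lay near the array median of 7.19, with means from 7.15 to 7.22 at both ages. Dct, Tyrp1, Pmel and Mlana fell by more than the melanin mean did. The differences given for the members therefore depend on which melanin genes are averaged, and other choices were not tested.

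RNA of muscle and blood was also highest in 2 month replicate 2. The 6 tested skeletal muscle genes had a mean deviation from their own mean of 1.31 in 2 month replicate 2, with 0.31 in replicate 1 and −0.47 in replicate 3 of that age and −0.52 to −0.27 at 8 months, and their changes were all negative. Myl1, a myosin light chain of fast muscle, read 9.32, 11.14 and 7.31 at 2 months and 7.48, 7.52 and 7.14 at 8 months, and Acta1, skeletal actin, had a change of −0.46. The 3 tested red blood cell genes stood at 0.44, 1.71 and 0.29 at 2 months and at −0.86 to −0.78 at 8 months. Hbb-bs and Hbb-bt, near-identical globin genes that probes may not tell apart, both had a change of −1.69 at their brightest probes. The changes ran from there to −0.69 over the 6 tested probes of Hbb-bs and to −0.20 over the 4 of Hbb-bt. In 8 month replicate 3, where the members were lowest, red blood cell genes were at −0.78, against −0.86 and −0.79 in replicates 1 and 2, and muscle genes at −0.52, against −0.37 and −0.27. The 7 tested cone genes stood further apart there, at −1.24 against −0.46 and −0.47. The part of these tissues in the values of the members was not tested.

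The list means of Müller glia and inner retinal neuron genes moved less from sample to sample. Opposite movements cancel in such a mean, and 4 of the 8 and 5 of the 10 changes between ages were negative. Single genes could range more widely, as Dkk3 of Müller glia did, from 13.01 to 13.58. The 8 tested Müller glia genes had mean deviations from −0.07 to 0.06 over the 6 samples, and 8 month replicate 3 was at −0.04. Glul, the glutamine synthetase of Müller glia, read 8.36, 8.36 and 8.33, then 7.96, 8.27 and 8.23. The 10 tested genes of inner retinal neurons ran from −0.07 to 0.05, with 8 month replicate 3 highest. The 8 tested endothelial genes ran from −0.16 to 0.07, with 8 month replicate 3 at 0.02, the 6 tested rod genes from −0.39 in that sample to 0.36, and the 7 tested lens genes from −0.45 to 0.57, with that sample at −0.30. The arrays as a whole correlated at 0.990 to 0.996.

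**Figure D4:**
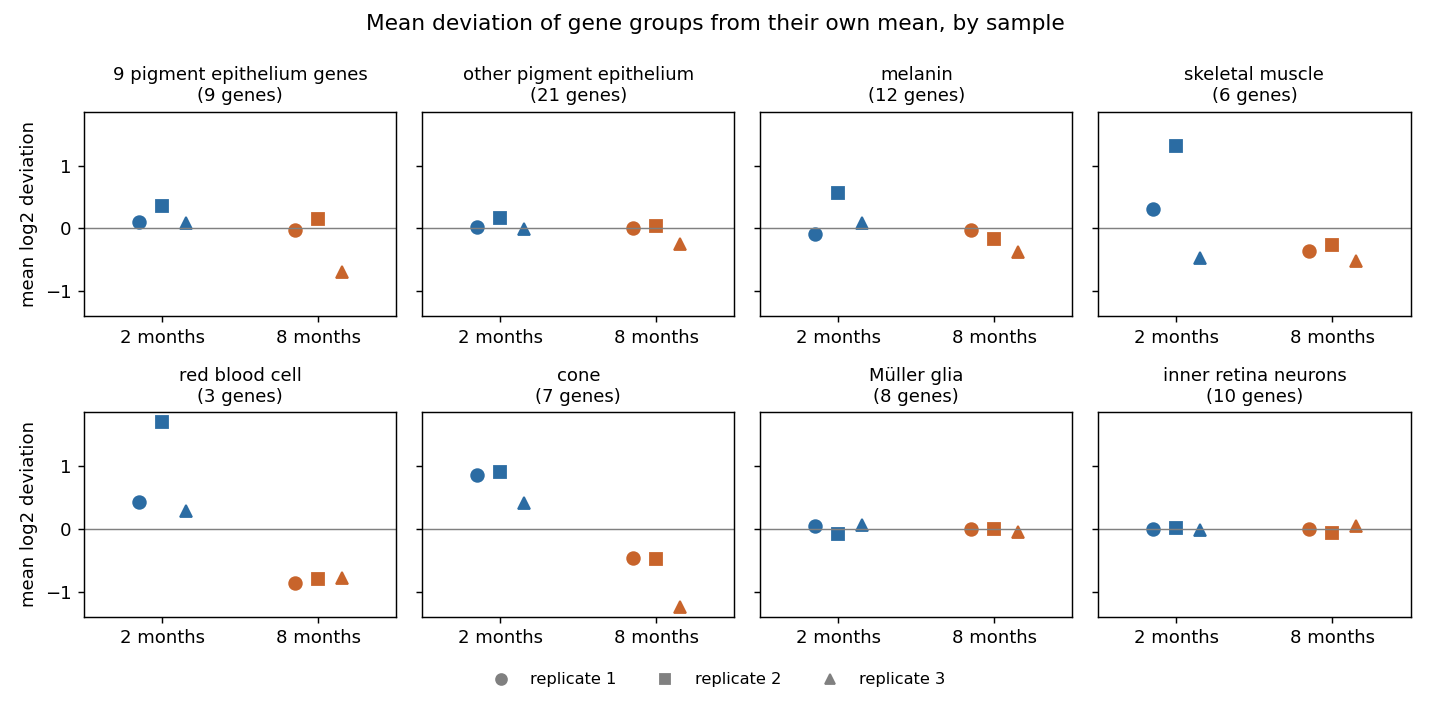
Mean log2 deviation of gene groups from their own mean over the 6 samples, by age (blue 2 months, orange 8 months), with marker shape for the replicate and 1 panel per group. The members, other pigment epithelium, melanin, muscle, red blood cell and cone panels have 2 month replicate 2 (square) on top. In the members, other pigment epithelium, melanin and cone panels 8 month replicate 3 (triangle) lies below the rest, at −0.69, −0.24, −0.37 and −1.24. It is also lowest in the muscle panel, at −0.52, close to 2 month replicate 3 at −0.47. The panels of Müller glia and inner retina neurons lie close to 0.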

How the data were processed

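Total RNA of 6 pooled samples was labelled with biotin for Illumina arrays, per the labels' protocols. The deposited table gives log2 intensity per probe, read from its range of 6.98 to 14.5. Its sorted columns differ by at most 0.00307, as after quantile normalization by the authors. The sources used here name no software, background correction or exact transform, and a variance-stabilising transform would compress dim probes. Groups and replicate numbers came from sample titles, which number the 2 month samples 1, 2 and 3 where the descriptions give 1, 1 and 2.

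Probes were named through the platform annotation (34885 with 1 symbol, 18 with several, 10378 with none). Probes above the 50th percentile of their array on at least 3 arrays (22458) were fitted with limma 3.58.1 in R 4.3.3 (lmFit, eBayes, no covariate), with Benjamini-Hochberg adjustment over all of them and a threshold of 0.05. The fit was tested on simulated data. For each gene of a list, the brightest tested probe was used.

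Named genes are the members, the 3 list genes with the smallest p for retinoid, pigment epithelium and melanin lists, the 2 brightest muscle and globin genes, tissue markers (Pax6, Glul, Grm6, Arr3) and the 10 closest profiles. Members and lists were chosen with earlier results of these data known. Alternatives were other normalizations, filters, 1 probe per gene, an intensity trend, leaving out each sample, and a replicate block. The number of arrays limits the precision.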

Additional observations from a re-analysis of the deposited data

How the results depend on the processing

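No member probe was called under any of 14 alternatives, where the smallest adjusted p of a member was 0.287 (limma). Of 163 member values under these alternatives, 158 kept their direction. Filters, 1 probe per gene, the intensity trend and the replicate block leave each difference of means as it was. No reversal was possible there. Other normalizations moved the differences little, since the columns were already alike. The 5 reversals came from leaving out 1 sample, and the ranges over the 6 such fits were −0.52 to 0.0091 for Rpe65, −0.34 to 0.024 for Ttr and −0.024 to 0.022 for the dim probe of Rdh5. The median over all member probes ran from −0.53 without 8 month replicate 2 to −0.07 without 8 month replicate 3. Over the whole array, 8 probes were higher and 3 lower. With 1 sample left out, 3 to 15 were higher and 0 to 29 lower. No filter gave 5 lower, a stricter filter 48 higher and 47 lower, 1 probe per gene 19 and 8, and an intensity trend in the prior 52 and 71. The cause was not tested. Same-numbered samples deviated together only weakly (r of 0.05, 0.13 and 0.16), although each correlated best with its own number, so the numbers were not taken as pairs. With the replicate block, which rests on the titles' numbers, 12 probes were higher and 13 lower, with 0 members called. At an unadjusted p below 0.05 (limma), 5 member probes were then lower, beside 1131 of all 22458 probes. Over all alternatives this count of members ran from 0 to 6. The 6 came without 8 month replicate 2, beside 922 of 21803 probes. Without 8 month replicate 3 the count was 1, beside 803 of 21680 probes. Signal over background limits Best1, Lrat and the dim probes of Rdh5, Rrh and Stra6.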
